A study of Mus musculus with 4 samples.

Results

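The cells assigned to the type 08_Novel numbered 4606 of the 131379 retinal ganglion cells (RGCs) mapped in 5 wild-type C57BL/6 mouse retinas. Members were all cells to which the authors' own type column gave the name 08_Novel. RGCs are the output neurons of the retina, and the authors divided them into 45 types. Flat-lying (en face) 20 µm cryosections of the retinas were imaged by Xenium, which decodes single transcripts as puncta, with a panel of 300 genes. The mice had no treatment, their age is not given in the labels, and the labels describe 1 group, so the retina is the replicate and all comparisons lie within retinas. No label ties a retina to an animal, and the p-values thus speak of the spread among these retinas only, which could be technical.

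Mouse RGC types differ in the visual feature they report, in their dendrites and in the genes they express. Eomes (Tbr2) is a T-box transcription factor that is known for the formation and upkeep of intrinsically photosensitive RGCs (ipRGCs), which sense light themselves through melanopsin, the product of Opn4. The ipRGC subtypes M1 and M2 are known for much melanopsin and M5 for little. Eomes is also known from RGCs with no clear melanopsin signal.

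Retinas 1 to 5 held 1213, 1354, 500, 998 and 541 cells of the type. Their median puncta per cell, over all 300 genes, was 346, 308, 286.5, 315 and 315, and no cell in the deposited table had fewer than 100 puncta. The type held 450338 puncta in retina 1, 438272 in retina 2, 155578 in retina 3, 323094 in retina 4 and 181953 in retina 5. Values from retinas 3 and 5 therefore carry the most counting error. Over all RGCs the median per cell lay between 285 and 326 puncta in the 5 retinas. Levels below are in CPM, the puncta of a gene per 1000000 puncta of the summed cells, and are relative to this panel. The profile of the type varied little between retinas. Its 280 genes with at least 100 puncta had a median coefficient of variation of 11.2%. The lowest Spearman (rank) correlation of CPM over genes between any pair of retinas was 0.984.

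Eomes, the marker that names the lineage, was present in the type at 7061, 6309, 5682, 6738 and 6623 CPM in retinas 1 to 5. The mean was 6483 ± 522 CPM (SD, n = 5), or 2.17 puncta per cell, against a median of 800 CPM over the 44 other types. Every retina lay far above that median. The type ranked 7 of 45 for Eomes. The 6 types above it were 33_M1 (23042 ± 2754 CPM), 40_M1dup (20021 ± 1408), 22_M5 (10342 ± 971), 07_Novel (9719 ± 486), 29_Novel (8914 ± 709) and 31_M2 (8895 ± 795). The next type down was 43_AlphaONS at 5967 ± 617 CPM, whose range over retinas overlapped that of 08_Novel. After it came 44_Novel at 1897 CPM. Eomes thus separated 8 types, 08_Novel among them, from the remaining 37, and within the 8 it placed 08_Novel near the low end.

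The general RGC markers on the panel were present. Rbpms, an RNA-binding protein gene used as a general RGC marker, had 7.18 puncta per cell and was seen in 96.2% of cells, and Slc17a6, the vesicular glutamate transporter of RGCs, had 10.9 puncta per cell and was seen in 98.8%. Of the POU factors that specify RGC identity, Pou4f2 was high at 4373 ± 482 CPM (rank 6 of 45) and Pou4f3 low at 236 ± 37.9 CPM (rank 43 of 45). Markers of most other retinal cell classes were near the median of the other types, with the horizontal cell list the exception. The 6 horizontal cell genes summed to 24992 CPM (23935 to 26066 over retinas) against a median of 10531 over the other types (rank 8 of 45), and are taken up below with Onecut1, Onecut2 and Ndnf. The 13 amacrine genes summed to 14033 CPM (12593 to 15375 over retinas) against a median of 15217 over the other types. The 11 bipolar genes, which include Isl1, summed to 10895 CPM (9990 to 11666) against 9368, and the 3 rod genes to 3873 CPM (2103 to 5676) against 3812. The 5 Müller glia genes summed to 4987 CPM against 4888, the 2 microglia genes to 146 against 138, and Cdh5, the only endothelial gene, was at 211 against 184. The 2 cone genes summed to 344 CPM against 355, the 2 astrocyte genes to 1429.8 against 1170.4, and the pericyte gene was at 111 against 93.2.

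The type was compared with the mean log2 level of the 44 other types in each retina. Types can rest on these same genes, so the ratios describe the type and carry no test. At a ratio of at least 2-fold in every retina, 24 of the 300 genes (8%) were higher and 5 (1.67%) were lower. When all other cells were pooled in place of the mean over types, 11 were higher and 22 lower, so the split between higher and lower depends on that choice. A pooled mean gives abundant types and very high single types more weight.

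**Figure D1:**
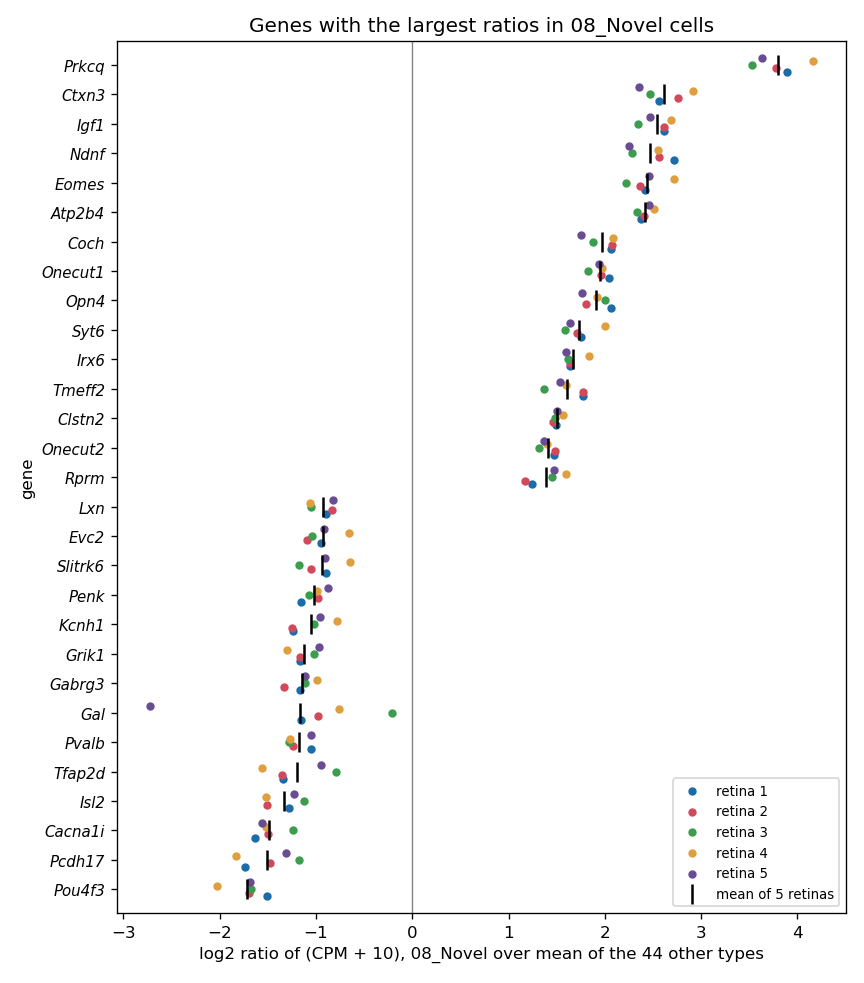
Log2 ratio of CPM + 10 in 08_Novel cells to the mean of the 44 other types, for the 15 higher and 14 lower genes with the largest ratios; points are the 5 retinas and bars their mean. Prkcq stands apart at 3.80, and Pou4f3 is the lowest at -1.72.

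The gene that stood out most was Prkcq, which encodes the signalling kinase protein kinase C theta. It was at 3502, 2964, 3362, 3364 and 3391 CPM in retinas 1 to 5. The median of the other types was 158 CPM and the log2 ratio was 3.80 ± 0.24 (SD, n = 5), a 13.9-fold difference. High Prkcq was shared by 6 types: 43_AlphaONS (4326 ± 301 CPM), 40_M1dup (3950.5 ± 676), 33_M1 (3525 ± 426), 31_M2 (3426 ± 357), 08_Novel (3317 ± 205) and 22_M5 (2428 ± 281), and the next type had 394 CPM. The range of 08_Novel overlapped those of 31_M2, 33_M1 and 40_M1dup. The 2 remaining Eomes-high types did not share it: 07_Novel had 357 CPM, and 29_Novel had 0.0583 Prkcq puncta per cell against 1.11 in 08_Novel.

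Secreted and matrix genes made up part of the profile. Igf1, which encodes insulin-like growth factor 1, was at 13423, 12800, 10593, 12108 and 10635 CPM, a log2 ratio of 2.55 ± 0.14. Ndnf, which encodes a secreted neurotrophic factor, was at 10275, 10060, 8832, 9047 and 8365 CPM, a log2 ratio of 2.47 ± 0.20. Coch, which encodes the matrix protein cochlin, was at 7545 ± 849 CPM with a ratio of 1.97 ± 0.15. In each of these genes retina 1 was the highest, and all 5 retinas were above the other types' mean. All 3 genes were also high in other types, with 08_Novel at rank 5 for Igf1 and Ndnf and rank 6 for Coch.

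Membrane and synaptic genes formed another part. Ctxn3, which encodes the small neuronal membrane protein cortexin 3, had a mean of 11143 ± 562 CPM and a log2 ratio of 2.61 ± 0.23. Atp2b4, a plasma membrane calcium pump, was at 7815 ± 394 CPM (2.42 ± 0.07). Syt6, a synaptotagmin, was at 5572 ± 330 CPM (1.74 ± 0.16), and Tmeff2, a transmembrane protein with follistatin-like domains, at 9047 ± 319 CPM (1.61 ± 0.18). Clstn2, which encodes the synaptic adhesion protein calsyntenin 2, was at 14309, 12513, 13035, 13197 and 14081 CPM, against a median of 5049 CPM over the other types. Of all 45 types 08_Novel had the highest mean Clstn2 level, followed by 07_Novel at 12023 ± 822 CPM, with overlapping ranges.

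Several transcription factor genes were among the 15 with the largest ratios. Onecut1 and Onecut2, which encode homeodomain factors known from RGC and horizontal cell development, were at 5356 ± 372 CPM (log2 ratio 1.95 ± 0.08) and 2965 ± 85.7 CPM (1.41 ± 0.07). The type had the highest mean Onecut2 level of the 45, but 18_Novel (2941 ± 55.5 CPM) and 22_M5 (2882 ± 490) lay within its spread. Irx6, an Iroquois factor, was at 3297 ± 84.1 CPM (1.66 ± 0.09). Of 20 transcription factors of RGC types on the panel, 3 were at least 2-fold higher in every retina (Eomes, Irx6 and Pou4f2) and 2 were lower (Pou4f3 and Isl2), where the share over all 300 genes was 8% higher and 1.67% lower. Onecut1 and Onecut2 are not in that list of 20, which had a median log2 ratio of -0.31 against -0.09 over all 300 genes. Rprm, a cell cycle regulator gene, closed the list of the 15 highest at 2132 ± 237 CPM (1.39 ± 0.18).

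Melanopsin transcript was low but present. Opn4 was at 702, 552, 623, 557 and 495 CPM in retinas 1 to 5, a mean of 586 ± 79.2 CPM or 0.196 puncta per cell. The 5 types above it were 40_M1dup (27652 ± 5862 CPM), 33_M1 (14473 ± 3298), 31_M2 (5867 ± 401), 22_M5 (3081 ± 304) and 43_AlphaONS (1633 ± 162), none of which overlapped it. The type below it, 07_Novel at 481 ± 96.9 CPM, overlapped. The median over the other types was 86.0 CPM and the log2 ratio against their mean log2 level 1.91 ± 0.13. To compare cells at equal depth, each cell was thinned to 100 puncta. An Opn4 punctum was then expected in 5.32% ± 0.71 of 08_Novel cells (14.0% unthinned, median depth 318 puncta), in 24.6% ± 2.49 of 22_M5 cells (52.2%, 295) and in 1.21% ± 0.28 of 01_W3D1.1 cells (2.30%, 188), a type outside the Eomes lineage. The share in 08_Novel was above that of 01_W3D1.1 in every retina, the ranges being 4.75 to 6.53% and 0.932 to 1.67%. Whether puncta from neighbouring cells add to it was not tested; values that bear on it follow below with the neighbours.

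Tbx20, another T-box gene of Eomes-high types, was not part of the profile. It was at 391 ± 61.6 CPM (0.130 puncta per cell), with a thinned detection of 3.52% ± 0.55 against 80.6% ± 4.84 in 07_Novel and 39.8% ± 3.67 in 31_M2. In 01_W3D1.1 the thinned share was 2.63% ± 0.28, with a range over retinas that overlapped that of 08_Novel (unthinned 7.56% in 08_Novel and 4.84% in 01_W3D1.1). Of the 6 ipRGC and Eomes lineage genes on the panel, Eomes, Opn4, Igf1, Prkcq and Ndnf were at least 2-fold higher in every retina and Tbx20 was not, with a median log2 ratio of 2.45. These genes were chosen with results of these data known, so the count is a description.

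**Figure D2:**
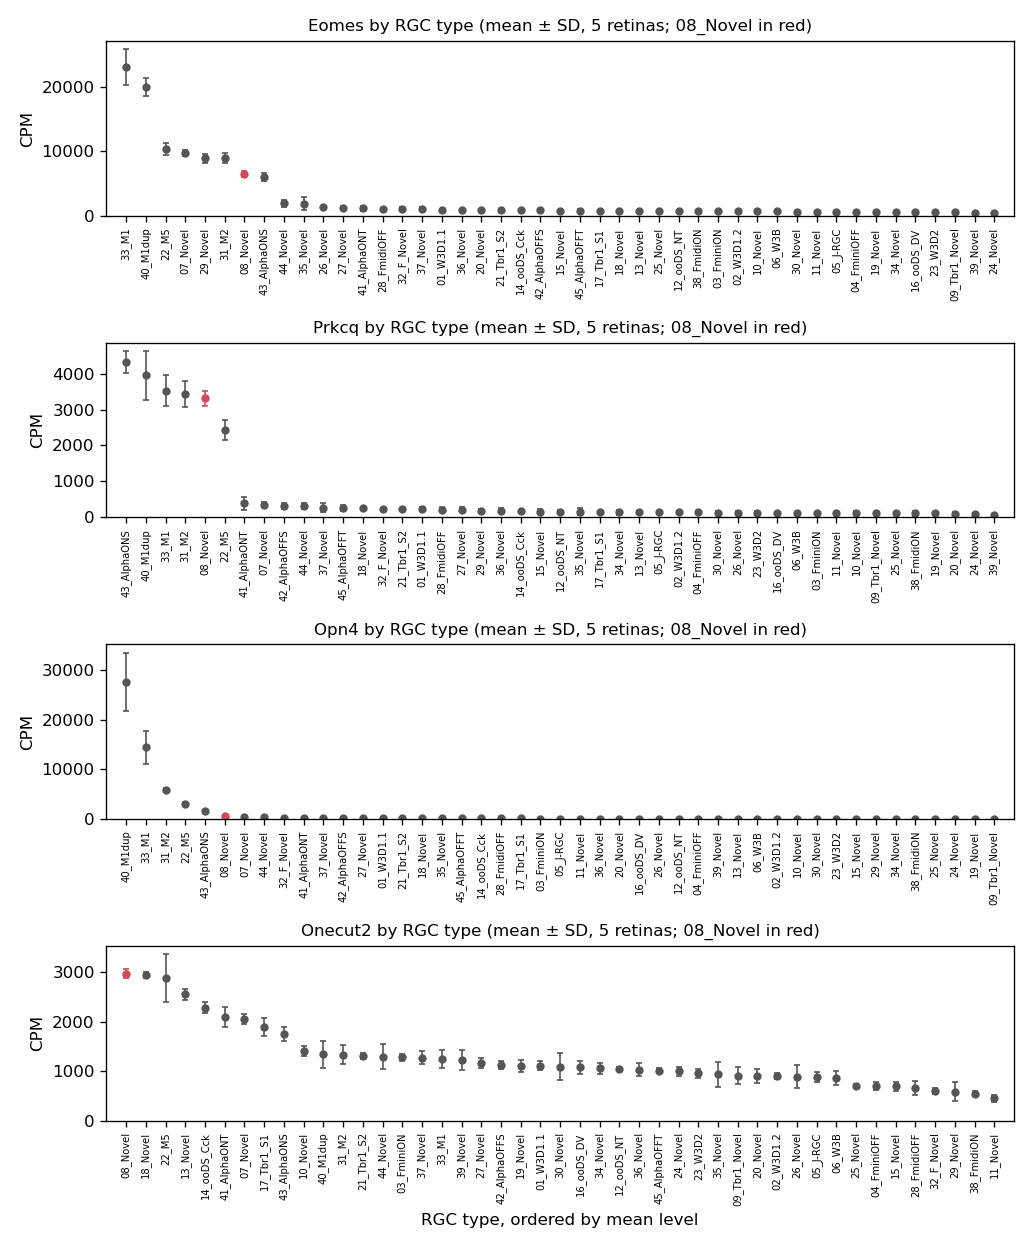
Levels of Eomes, Prkcq, Opn4 and Onecut2 (CPM, linear scale) in each of the 45 RGC types, ordered by level; points are means and bars the SD of 5 retinas, with 08_Novel in red. The type ranks 7 for Eomes, 5 for Prkcq, 6 for Opn4 and 1 for Onecut2.

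The lowest ratio was that of Pou4f3. It was at 235, 281, 264, 186 and 214 CPM, a log2 ratio of -1.72 ± 0.19, and was seen in 7.29% of cells. Pcdh17, a protocadherin gene, had a ratio of -1.50 ± 0.28, Cacna1i, which encodes a T-type calcium channel, -1.49 ± 0.15, and Isl2, a LIM factor of other RGC types, -1.33 ± 0.18. Pvalb, the calcium buffer parvalbumin, was at 396 ± 51.8 CPM (-1.18 ± 0.12). These 5 were the genes at least 2-fold lower in every retina. Gabrg3, which encodes a GABA-A receptor subunit, lay between 723 and 926 CPM against a median of 1348 over the other types, and Grik1, a kainate receptor gene, was at 349 ± 57.2 against 739. The opioid precursor gene Penk was at 730.4 ± 89.9 CPM against 961. Gal, the galanin gene, was at 48.4 ± 24.3 against 68.1, on only 80 puncta in the type. Its retinas 1 to 4 lay between 54.8 and 64.3 CPM, near that median.

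The summed levels of receptor genes were low. The 15 GABA and glycine receptor genes summed to 49635 CPM (46980.3 to 52068 over retinas) against a median of 66515 over the other types, rank 40 of 45. The 14 glutamate receptor genes summed to 47774 CPM (45801 to 51177) against 64086, also rank 40. No single member of either group was 2-fold lower in every retina, and their median log2 ratios were -0.16 and -0.31 against -0.09 over all 300 genes. The sums weigh the abundant members most. Voltage-gated channels did not stand apart: the 31 potassium channel genes ranked 34, the 9 sodium channel genes 19 and the 16 calcium channel genes 14, with median log2 ratios of 0.01, 0.13 and 0.02. Of the 6 horizontal cell genes, Onecut1, Onecut2 and Ndnf were 2-fold higher. Calb1 was at 5704 CPM against a median of 3030 over the other types (log2 ratio 0.55), and Prox1 at 1636 against 1706. Lhx1, which defines horizontal cells, was at 16.3 ± 10.4 CPM and seen in 0.521% of cells. It was as low in the other types, with a median of 20.8 CPM, so it does not set 08_Novel apart. Counts for the lists of other RGC classes are to be read against the 8% of all genes that were higher and the 1.67% that were lower. Among these markers, 1 of 7 alpha genes was higher (Coch), 2 of 3 Tbr1-class genes (Jam2 and Rprm), none of 3 Foxp2-class genes, none of 2 direction-selective genes and none of 5 W3 genes, of which Isl2 was lower. Of 7 neuropeptide and hormone genes Igf1 was higher, and of 15 adhesion and matrix genes Jam2 and Coch were higher and Pcdh17 was lower. The median log2 ratios of these lists were -0.18 and -0.28, against -0.09 over all 300 genes.

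By Spearman correlation over the 300 genes, the most similar types were 22_M5 (0.942), 17_Tbr1_S1 (0.928) and 27_Novel (0.924). The cut was not sharp. Next came 43_AlphaONS (0.919), 07_Novel (0.918), 05_J-RGC (0.918) and 18_Novel (0.917), whose ranges over retinas overlapped that of 27_Novel (0.906 to 0.925). These likenesses share the panel and the retinas and are given without a test. Against 22_M5, 10 genes were at least 2-fold higher in 08_Novel in every retina and 14 lower. Syt6 was higher by a log2 ratio of 2.73 ± 0.41, Rprm by 2.43 ± 0.33, Tmeff2 by 2.26 ± 0.26 and Coch by 2.15 ± 0.33. On the other side, Serpine2, a protease inhibitor gene, had 0.0663 puncta per cell in 08_Novel and 0.536 in 22_M5, a log2 ratio of -3.06 ± 0.54. Opn4 had 0.196 against 0.932 puncta per cell (-2.38 ± 0.06), and Tbx20 had a thinned detection of 3.52% against 13.2%. Both types had high Igf1, Ndnf and Ctxn3, but at different levels: 22_M5 was at 23095 CPM for Igf1, 27327 for Ndnf and 23579 for Ctxn3, the highest of the 45 types for each, and 08_Novel at 11912, 9316 and 11143.

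The other near types shared some of the leading genes and not others. For Igf1, 27_Novel was at 12868 ± 1749 CPM and 08_Novel at 11912 ± 1273, with overlapping ranges, and 17_Tbr1_S1 was at 8036 ± 1002. For Ctxn3, 17_Tbr1_S1 was at 8867 ± 742 CPM and 08_Novel at 11143 ± 562, and the thinned detection was 50.3% and 51.2%. Against 17_Tbr1_S1, Prkcq was higher by 4.36 ± 0.29, Ndnf by 3.21 ± 0.17, Eomes by 3.10 ± 0.30 and Coch by 2.54 ± 0.28, while Tfap2d (-3.86 ± 0.45), an AP-2 factor, Pou4f3 (-3.48 ± 0.36) and Meis2 (-2.56 ± 0.27), a homeodomain factor, were lower. Against 27_Novel, Prkcq was higher by 3.94 ± 0.45, Ctxn3 by 2.63 ± 0.34 and Ndnf by 2.62 ± 0.41, while Kcnh1 (-2.89 ± 0.19), a potassium channel gene, and Pvalb (-2.61 ± 0.28) were lower. Meis2 was the most deeply counted of these, with 7.85 puncta per cell in 17_Tbr1_S1.

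Within the type Eomes was spread over cells. No Eomes punctum was seen in 27.3% ± 3.61 of cells, 1 in 22.2%, 2 in 16.8%, 3 in 11.4% and 4 or more in 22.3% ± 4.11. Depth was higher along that order, with a median of 214 puncta in cells without Eomes and 447 in cells with 4 or more, so cells without a punctum were also the shallower cells. With Eomes itself left out of the total, Ctxn3 was at 7004 ± 639 CPM in cells without Eomes and 12324 ± 556 in cells with it, Prkcq at 2217 ± 138 and 3632 ± 274, and Ndnf at 7368 ± 1217 and 9918 ± 673, each higher with Eomes in 5 of 5 retinas. Clstn2 (13271 against 13584 CPM) and Tmeff2 (9158 against 9094) were about equal. Cells without Eomes remained above the other types' mean of 559 CPM for Prkcq and 3452 CPM for Ctxn3.

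Most cells carried several of the leading genes together. Of the 6 genes Prkcq, Ctxn3, Igf1, Ndnf, Eomes and Atp2b4, chosen for their ratios, 74.7% ± 3.24 of 08_Novel cells had a punctum of at least 4, against 89.2% ± 4.53 of 22_M5 cells, 68.4% ± 3.52 of 07_Novel cells and 11.7% ± 0.99 of cells of all other types together. At most 1 of the 6 was seen in 4.37% ± 1.00 of 08_Novel cells. The median depths were 318, 295, 291 and 303 puncta.

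In size the type was near the middle. The median volume was 636, 609, 655, 541 and 641 in retinas 1 to 5, in the deposited unit, which is not named. It exceeded the median of the other types in 5 of 5 retinas, but by a log2 ratio of only 0.04 ± 0.02 (exact two-sided sign-flip permutation p = 0.0625, the smallest that 5 retinas allow), and the type ranked 19 of 45. Puncta per cell were higher in 4 of 5 retinas by 0.03 ± 0.04 (exact p = 0.1875). The cells were slightly more elongated than the other types, at 1.24 ± 0.02 against 1.21 ± 0.01 (rank 6, higher in 5 of 5 retinas, exact p = 0.0625). Their mean DAPI intensity, a DNA stain read by the scanner, was 1342 ± 106 against 1425 ± 140 and lower in 5 of 5 retinas (exact p = 0.0625).

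The type made up 3.46% of RGCs in retina 1 (exact binomial 95% interval 3.27 to 3.65), 3.30% in retina 2 (3.13 to 3.48), 3.81% in retina 3 (3.49 to 4.15), 3.60% in retina 4 (3.38 to 3.82) and 3.76% in retina 5 (3.46 to 4.09). The intervals cover counting error only. The mean was 3.59% ± 0.21 (SD, n = 5), which placed 08_Novel 6 of 45 by abundance, with a coefficient of variation of 5.94%. In the 27 sections with at least 1000 RGCs, the share ran from 2.68% to 4.78% with a median of 3.57%. Retina 1 lay on 2 slides with different shares, 2.78% (2.50 to 3.07) and 3.85% (3.60 to 4.11). The RGCs of these slides also differed in position, with median radii of 0.799 and 0.615 on a scale where the retina is scaled to a circle.

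The study asked how the density and gene expression of RGC types vary over the retina. The circle-scaled positions in the deposited table were split at a radius of 0.5 into centre and periphery, and at 0 along X and Y, axes to which the labels give no anatomical direction. From centre to periphery the share of 08_Novel did not change beyond error. It was 3.50% ± 0.37 in the centre and 3.64% ± 0.25 in the periphery, higher in the periphery in 3 of 5 retinas, with a log2 ratio of 0.06 ± 0.06 (SE; edgeR quasi-likelihood, adjusted p = 0.465). In the same fit 19 of 45 types (42.2%) passed. In 5 rings from the middle outward the share lay between 3.48% and 3.69%.

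Along X the share was higher on the positive side in 5 of 5 retinas. It was 3.17, 3.29, 3.70, 3.26 and 3.51% on the negative side and 3.71, 3.30, 3.97, 3.90 and 4.04% on the positive side. Retina 2 was nearly level, and the others were 0.10 to 0.26 higher on the log2 scale. The edgeR estimate was 0.16 ± 0.05 with an adjusted p of 0.0386 over 45 types, of which 13 (28.9%) passed; the exact permutation p was 0.0625. The call was lost without retina 1 (adjusted p = 0.178, edgeR), without retina 4 (0.141), with only cells of at least 200 puncta (0.101), with no retina block (0.132) and in DESeq2 (0.0744).

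Along Y the difference was larger but did not pass. The share was 3.01, 2.90, 3.76, 3.14 and 3.59% on the negative side and 3.87, 3.82, 3.85, 4.22 and 3.87% on the positive side of retinas 1 to 5. All 5 positive sides were above all 5 negative sides, with an estimate of 0.27 ± 0.07 (edgeR adjusted p = 0.0984, exact permutation p = 0.0625). 0 of the 45 types passed (0%). Retinas 3 and 5 differed by 0.03 and 0.11 on the log2 scale and the other 3 retinas by 0.37 to 0.43. The value passed in DESeq2 (adjusted p = 0.0203), with no retina block (0.0332, edgeR), with the section as block (0.00105) and without retina 3 (0.0419) or retina 5 (0.0239). Sections are cuts of the same 5 retinas and not replicates of their own, so the section fit overstates the evidence. The quadrant with positive X and Y held 4.15% ± 0.34 and the one opposite 3.19% ± 0.38.

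**Figure D3:**
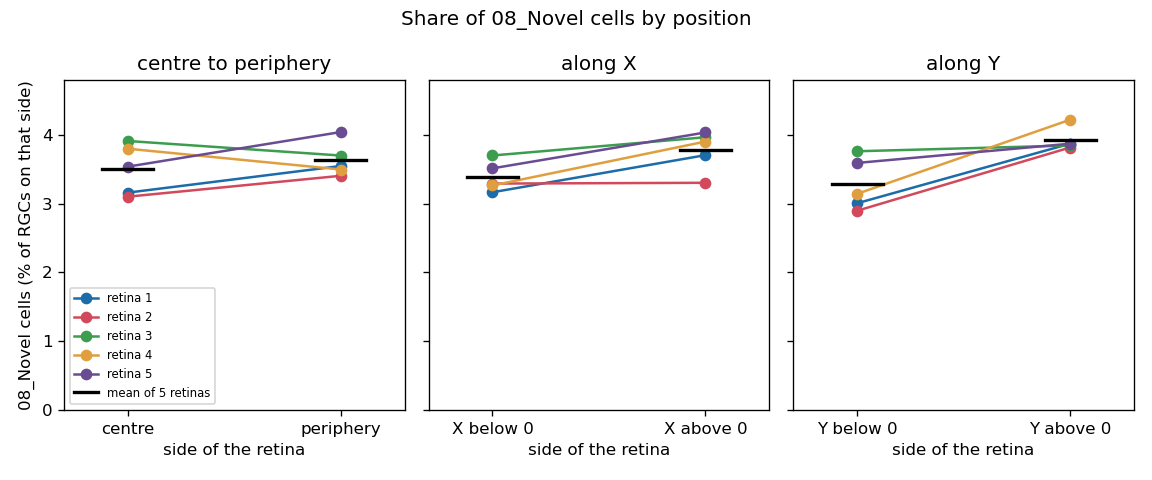
Share of 08_Novel among the RGCs on each side of 3 axes; each line is 1 retina and black bars are means of 5 retinas. The share differs little from centre to periphery, is higher at positive X (3.78% against 3.39%) and at positive Y (3.93% against 3.28%) in every retina.

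Within 08_Novel cells, 16 of 269 genes (5.95%) changed from centre (1612 cells) to periphery (2994 cells) at an adjusted p under 0.05, adjusted over all type-gene pairs of the axis, in edgeR with the retina as block. 12 genes rose towards the periphery and 4 fell. The count moved with the retinas used, from 32 when retina 1 was left out to 7 for retina 2, 6 for retina 4 and 7 for retina 5. It was 7 in DESeq2 and 0 with no retina block. Over all types 2.26% of type-gene pairs passed on this axis.

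Of the genes that rose, Fgf1, which encodes fibroblast growth factor 1, was the most deeply measured, with 42000 puncta. It went from 21515, 22616, 23054, 25119 and 22833 CPM in the centre of retinas 1 to 5 to 30229, 27604, 24969, 31813 and 27548 in the periphery. It was higher in 5 of 5 retinas, with a log2 change of 0.30 ± 0.05 (SE; edgeR adjusted p = 0.00103). Retina 3 changed least. Rprm went from 1714 ± 401 to 2367 ± 280.1 CPM (0.49 ± 0.11, adjusted p = 0.0092) and Fxyd6, which encodes a sodium pump regulator, from 2118 ± 508 to 2992 ± 572 (0.52 ± 0.09, adjusted p = 0.00114), both higher in 5 of 5 retinas. Fgf1, Fxyd6, Rprm and Gnat1 passed in all 5 fits that left out 1 retina. Of the 41 other types tested, Fxyd6 rose in 27, Fgf1 in 3 and Rprm in 0, with a median log2 change of -0.10 for Rprm over those types.

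Further genes rose by 0.35 to 0.49 on the log2 scale. Gad2, which encodes a GABA-synthesising enzyme, rose by 0.43 ± 0.11 (edgeR adjusted p = 0.032) from 964 ± 98.9 CPM, and Gabrg1, a GABA-A receptor subunit gene, by 0.43 ± 0.11 (0.0361) from 1076 ± 154. Nell1, which encodes a secreted glycoprotein, rose by 0.35 ± 0.09 (0.0294) and Qpct, which encodes glutaminyl cyclase, an enzyme that modifies peptide ends, by 0.49 ± 0.12 (0.0253). All 4 were higher in 5 of 5 retinas, but their calls moved with the retinas used. Gad2 passed in 2 of the 5 fits that left out 1 retina (lost without retina 2, 4 or 5, adjusted p = 0.109, 0.168 and 0.14 in edgeR) and Gabrg1 in 1 (lost without retina 1, 3, 4 or 5, 0.0614 to 0.219). Nell1 passed in 2 (lost without retina 1, 2 or 5, 0.0522 to 0.15) and Qpct in 2 (lost without retina 2, 4 or 5, 0.0923 to 0.134). Vgf, which encodes a secreted neuropeptide precursor, rose by 0.44 ± 0.09 (0.00457) but in 4 of 5 retinas, with retina 3 level at 5322 and 5294 CPM; it is named after its values were seen, and was lost without retina 2 (0.0577).

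The largest changes were in genes known from photoreceptors. Cacna2d4, a calcium channel subunit gene of photoreceptor synapses, rose by 0.88 ± 0.24 (edgeR adjusted p = 0.0385) from 153 ± 62.7 to 285 ± 128 CPM, with 310 puncta in all, and retina 1 was level at 122 and 122 CPM. Rpgrip1, a gene of the photoreceptor cilium, rose by 0.82 ± 0.20 (0.0186) and Gnat1, the rod transducin gene, by 0.75 ± 0.13 (0.0013), both in 4 of 5 retinas, retina 1 being the exception. Rlbp1, a Müller glia gene, rose by 0.46 ± 0.12 (0.0262), also in 4 of 5. These 3 are named after their values were seen. Cacna2d4 passed in 1 of the 5 fits that left out 1 retina (lost without retina 2, 3, 4 or 5, edgeR adjusted p = 0.097 to 0.199). Rpgrip1 passed in 2 (lost without retina 3, 4 or 5, 0.0652 to 0.186) and Rlbp1 in 2 (lost without retina 2, 4 or 5, 0.11 to 0.192). Beside them, the 3 rod genes summed to 3184 CPM in the centre (1816 to 4863) and 4442 in the periphery (2070.4 to 6653) of 08_Novel cells, and to 3482 and 4447 CPM in all other RGCs. The 5 Müller glia genes summed to 4612 and 5285 CPM in 08_Novel (higher in 3 of 5 retinas) and 4672 and 5391 in other RGCs (4 of 5). Gnat1 is 1 of the 3 rod genes and Rlbp1 1 of the 5 Müller glia genes, so these sums are not separate from the genes that passed. In 08_Novel, Gnat1 alone went from 800 to 1352 CPM and Rlbp1 alone from 1406 to 1915. The rod and glial sums thus moved the same way in the other RGCs; their part in these changes was not tested.

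Genes that fell towards the periphery included 1 of the leading genes of the type. Ndnf went from 10980.3, 11413, 9561, 10854 and 9292 CPM in the centre to 10076, 9404, 7955, 8163 and 7391 in the periphery, lower in 5 of 5 retinas, and fell by 0.28 on the log2 scale (SE 0.06, edgeR adjusted p = 0.0102). Pcdh8, a protocadherin gene, fell from 5416 ± 366 to 4232 ± 298 CPM, a log2 change of -0.36 ± 0.08 (0.0086), and Jam2, an adhesion gene, from 10551 ± 605 to 9061 ± 797 (-0.22 ± 0.06, 0.0453), both in 5 of 5 retinas. Ppp1r17, which encodes a phosphatase inhibitor, fell by 0.50 in 4 of 5 retinas (SE 0.14, adjusted p = 0.0432) and is named after its values were seen. Of these, Ndnf passed in 2 of the 5 fits that left out 1 retina (lost without retina 2, 4 or 5, edgeR adjusted p = 0.0504 to 0.125) and Pcdh8 in 4 (lost without retina 4, 0.166). Jam2 passed in 1 (lost without retina 2, 3, 4 or 5, 0.0935 to 0.221) and Ppp1r17 in 1 (lost without retina 1, 2, 4 or 5, 0.0662 to 0.217). Eomes itself did not pass, at 0.21 ± 0.07 (adjusted p = 0.122) and higher in 4 of 5 retinas.

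**Figure D4:**
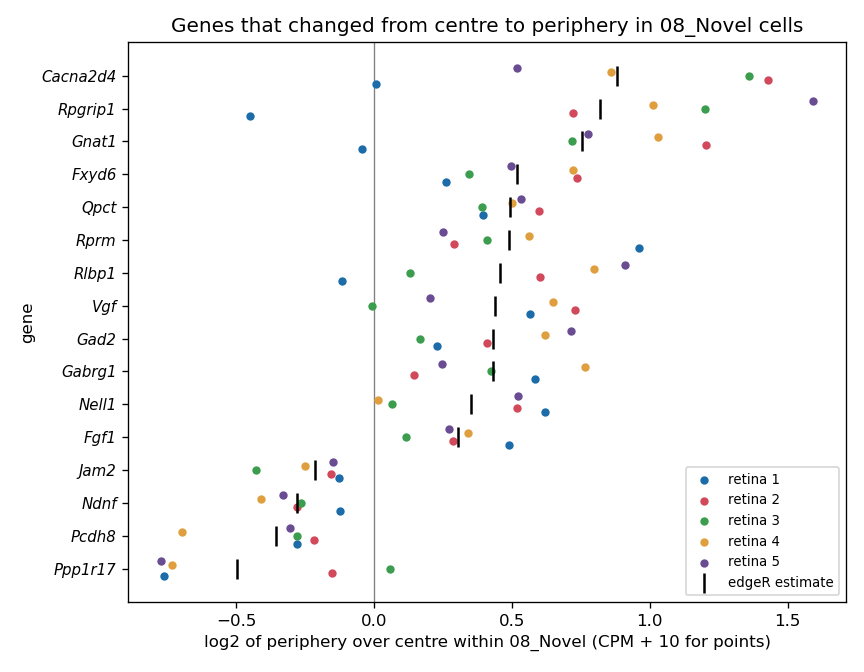
Log2 change from centre to periphery within 08_Novel cells for the 16 genes that passed; points are the 5 retinas and black bars the edgeR estimates. Fgf1, Fxyd6 and Rprm lie above 0 in every retina and Ndnf, Pcdh8 and Jam2 below 0, while retina 1 lies at or below 0 for Gnat1, Rpgrip1 and Rlbp1.

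Whether any change differed from that in the other RGCs was tested with an interaction term. On the radial axis 0 of 300 genes (0%) passed in edgeR, with 26 at an unadjusted p under 0.05, and 0 in DESeq2; without retina 1 the count was 3. The nearest genes shared an edgeR adjusted p of 0.367. In order of unadjusted p they were Rprm (difference in log2 change 0.53 ± 0.14, SE), Opn4 (-0.52 ± 0.15), Anxa2 (-0.30 ± 0.09), Pou4f3 (-0.52 ± 0.16) and Vgf (0.41 ± 0.13). Along X 0 of 282 genes (0%) changed within 08_Novel in edgeR, with 30 at an unadjusted p under 0.05 and 0 in DESeq2. The interaction there gave 0 of 300 (0%), with 12 unadjusted and 1 in DESeq2. Along Y 0 of 283 (0%) changed in edgeR, with 28 unadjusted and 0 in DESeq2. Without retina 5 the count was 2, and 14 passed with the section as block, which takes cuts of the same retinas as units. The interaction along Y gave 0 of 300 (0%) in edgeR, with 23 unadjusted and 0 in DESeq2. No gradient within 08_Novel was therefore shown to differ from that of the other RGCs.

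Same-type neighbours were counted next, within a limit that the table sets. In the deposited distances, the shortest between a pair of 08_Novel cells was 15.02 units, while 89.5% of the cells had their nearest RGC of any type within 15 units. The count of nearest RGCs of the same type was therefore largely fixed by that limit and is given without a test. By x and y position, which the neighbour counts used, the limit was not strict. There 0 neighbours of the type lay within 10 units, but 18 were counted at 10 to 15, where 267.7 would be expected (ratio 0.05 ± 0.06). Why the deposited distances and the positions differ was not tested. Of 4587 cells in sections of at least 200 RGCs, the nearest RGC was of the same type in 10, where 161.7 would match the type's share of the remaining cells in the same sections. The observed share was 0.165, 0.148, 0.203, 0.507 and 0% in retinas 1 to 5, against 3.29 to 3.83% expected, and was lower in all 5. The mean log2 ratio, with 0.5 added to each number, was -4.01 ± 0.97 (SD, n = 5). On the same measure 43 of the 45 types were below 0, and the other types had a median of -1.88. Of the 45 types, 17 had their shortest distance between 0.2 below and 0.5 above 15 units, 21 had a lower one and 7 a higher one. The sources used here do not state whether close pairs of 1 type were treated in a step of their own, and its part in values below 15 units was not tested.

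Beyond that distance a smaller deficit remained. Among the 5 nearest RGCs at least 15 units away, an alternative chosen after seeing the data, 593 were 08_Novel against 808.4 expected. The log2 ratio was -0.45, -0.49, -0.32, -0.47 and -0.40 in retinas 1 to 5, a mean of -0.43 ± 0.07 (exact permutation p = 0.0625). The other types had a median of -0.90 on the same measure, so the deficit was not particular to 08_Novel. By distance the observed to expected ratio of 08_Novel neighbours was 0.71 ± 0.10 at 15 to 20 units, 0.73 ± 0.11 at 20 to 30, 0.78 ± 0.10 at 30 to 40, 0.83 ± 0.06 at 40 to 50 and 0.92 ± 0.03 at 50 to 75. It was 1.02 ± 0.04 at 75 to 100 units and 1.06 ± 0.02 at 100 to 150. Every retina was below 1 in each ring up to 75 units.

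**Figure D5:**
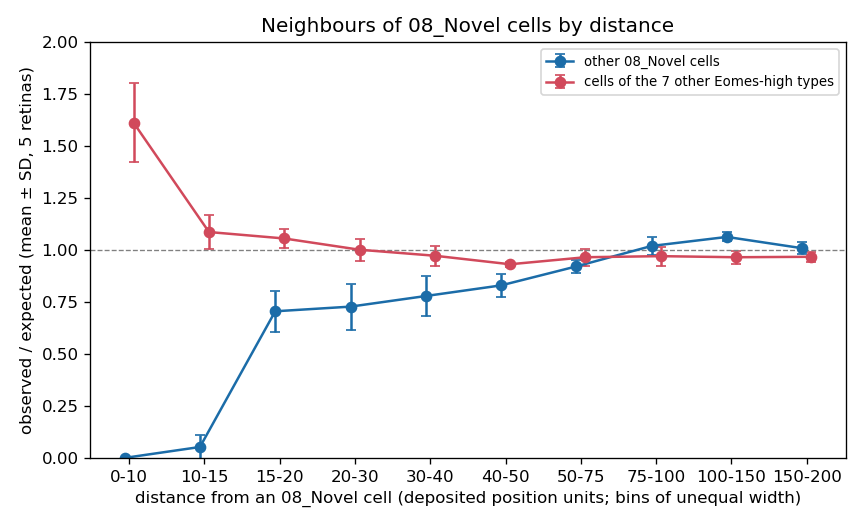
Observed over expected number of neighbours around 08_Novel cells by distance, for other 08_Novel cells (blue) and for cells of the 7 other Eomes-high types (red); points are means and bars the SD of 5 retinas, and the dashed line marks 1. Same-type neighbours are below 1 up to 75 units, and Eomes-high neighbours are at 1.61 in the closest ring.

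At short range the types around 08_Novel cells differed from their shares of the sections. Over the 5 nearest RGCs, the 5 most over-represented types were 43_AlphaONS (log2 ratio 0.46 ± 0.07), 22_M5 (0.42 ± 0.16), 29_Novel (0.30 ± 0.22), 31_M2 (0.28 ± 0.24) and 33_M1 (0.28 ± 0.16), each above 0 in 5 of 5 retinas. All 5 belong to the 7 other Eomes-high types. The 2 remaining ones were not over-represented, with 07_Novel at 0.01 ± 0.11 and 40_M1dup at -0.21 ± 0.34, below 0 in 3 of 5 retinas. Together the 7 types numbered 2346 against 2011.8 expected, a log2 ratio of 0.24 ± 0.05 (5 of 5 retinas, exact permutation p = 0.0625), and of the 38 types outside that group 08_Novel ranked 2, after 44_Novel (0.24 ± 0.18). For the 7 types together the excess lay at the closest distances. Their observed to expected ratio was 1.61 ± 0.19 within 10 units (547 against 338.3), 1.09 ± 0.08 at 10 to 15, 1.06 ± 0.05 at 15 to 20 and 1.00 ± 0.05 at 20 to 30. For 43_AlphaONS alone the excess reached further. Its ratio was 1.85 ± 0.41 within 10 units, 1.23 ± 0.10 at 20 to 30 and 1.08 ± 0.08 at 30 to 40, each above 1 in 5 of 5 retinas. It was still 1.06 ± 0.04 at 50 to 75 units (5 of 5) and 1.02 ± 0.06 at 150 to 200 (3 of 5). The 7 types together were at 0.93 ± 0.01 at 40 to 50 units and 0.97 ± 0.02 at 150 to 200, above 1 in 0 of 5 retinas in both. Their level at longer range was thus below 1. How far the outlining of touching cells bears on these counts was not tested.

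The 1883 cells with such a neighbour among their 5 nearest RGCs were compared with the 2704 without, a comparison added after the data were seen. Their median depths were 308 and 325 puncta. In edgeR with the retina as block, 11 of 282 genes (3.9%) differed at an adjusted p under 0.05. Beside an Eomes-high type 8 were higher and 3 lower. The count was 9 in DESeq2, 2 with no retina block, and 4 without retina 1. Spp1, the osteopontin gene, was at 1916, 1549, 2736, 1630 and 1867 CPM without and 2906, 3184, 3101, 2929 and 3528 CPM with such a neighbour. It was higher in 5 of 5 retinas, by 0.75 ± 0.08 on the log2 scale (SE, adjusted p = 6.13e-06). Tbx20 rose from 273 ± 59.0 to 562 ± 142 CPM (1.02 ± 0.14, adjusted p = 0.000137), Prph, the peripherin gene, from 764 ± 194 to 1027 ± 302 (0.47 ± 0.08, 0.00106) and Opn4 from 515 ± 49.3 to 694 ± 138 (0.43 ± 0.10, 0.00876), each in 5 of 5 retinas.

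The genes that were higher in cells beside an Eomes-high type included genes far more abundant in some of those types, but not in all. Spp1 had 0.804 puncta per cell in 08_Novel and 19.8 in 43_AlphaONS, Tbx20 0.130 in 08_Novel and 8.10 in 07_Novel, and Prph 0.292 in 08_Novel and 4.02 in 43_AlphaONS. In 43_AlphaONS Tbx20 was low, with a thinned detection of 1.99% against 3.52% in 08_Novel. Fgf1, Coch and Ctxn3 also rose, by 0.12 ± 0.02, 0.19 ± 0.04 and 0.15 ± 0.04 (edgeR adjusted p = 0.00106, 0.0026 and 0.023). Coch had 2.53 puncta per cell in 08_Novel, but 0.522 in 22_M5, 0.300 in 07_Novel and 0.230 in 29_Novel. In 43_AlphaONS its thinned detection was higher (80.1% against 44.4%). Ctxn3 had 3.71 puncta per cell in 08_Novel, but 0.858 in 33_M1 and 0.728 in 40_M1dup. In 22_M5 its thinned detection was higher (82.6% against 51.2%). The part of puncta from neighbouring cells in these changes was not tested. Syt6 fell by 0.19 (SE 0.04, adjusted p = 0.00392), Vgf by 0.21 (SE 0.05, 0.00618) and Nell1 by 0.17 (SE 0.05, 0.0481), each lower in 5 of 5 retinas.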

How the data were processed

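The authors imaged en face retina sections with Xenium and deposited 1 table of whole-number puncta counts per cell and gene, per the file headers, with the retina, slide, section, type, position, volume, shape and DAPI intensity of each cell. Segmentation, cell filters and type assignment are not given in the sources used here. The deposited position, volume, distance and shape values have no named unit or formula and were used as given. The 4 deposited samples are pairs of slides that no label ties to the table, so the retina column gave the replicates (n = 5). The members and gene lists were chosen with earlier results of these data known.

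Counts were summed per retina and type or side. Ratios used log2 of CPM + 10. Genes were named by fixed limits: up to 15 in each direction against the other types, 8 for each of the 3 nearest types and 10 on each axis, in the same direction in every retina and at no fewer than 100 puncta. Against other types, that limit was on puncta in 08_Novel for higher genes. For lower genes it was on the puncta expected from the other types' mean or counted in the compared type. Gal was thus named with 80 puncta in 08_Novel. Of the genes so named, 1 is not reported here. Lists were given by count with up to 4 examples. Genes within types were fitted with edgeR 4.0.16 (quasi-likelihood, TMM, filterByExpr, retina as block) under R 4.3.3, and p-values were adjusted after Benjamini-Hochberg across every type-gene pair of the axis. Type shares were fitted with edgeR on cells per side. The retina block pairs the 2 sides of 1 retina. DESeq2 1.42.0 and limma 3.58.1 served as alternatives. Single values had an exact sign-flip permutation test over retinas. Thinning to 100 puncta used the exact expected share. Neighbours were the nearest RGCs of the same section by x and y. On simulated counts for the radial gene fit within 08_Novel, 44.8% of 58 genes changed 1.2-fold and 93.5% of 62 changed 1.5-fold were recovered. Of 93 unchanged genes 6.45% were called. In that simulation most genes changed, all genes had the same spread, and p-values were adjusted over the genes of 08_Novel only. With that adjustment the real count was 37 in place of 16, so these rates do not give the sensitivity of the reported fit. For shares along the radius, 1.2-fold changes were recovered in 20% of 5 types and 1.5-fold in all 5. All else ran in Python 3.11.15 with scipy 1.17.1, numpy 2.4.6, matplotlib 3.10.9 and pandas 2.3.3.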

Additional observations from a re-analysis of the deposited data

Results flagged for a closer look

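Among 53 sets of 5 retina values checked for a retina far from the other 4 (Dixon's test at the 95% level), 4 stood out, where chance gives about 1 in 20. Prkcq was lowest in retina 2, at 2964 CPM against 3362 to 3502 in the others. Syt6 was highest in retina 4, at 6159 CPM against 5381 to 5456. Gal was lowest in retina 5, at 5.50 CPM against 54.8 to 64.3, but it had only 80 puncta in the type over all retinas. Pcdh8 changed most from centre to periphery in retina 4, by a log2 change of -0.70 against -0.31 to -0.22.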

How the results depend on the processing

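The share of RGCs, the volume, the depth and the same-type deficit kept their direction under the alternatives run for them, though beyond 15 units the same-type log2 ratio was -0.43 in place of -4.01. The total of 2-fold genes was 26 to 33, but its balance turned from 24 higher and 5 lower to 11 higher and 22 lower with other cells pooled. The share along X (log2) no longer passed with no replicate block (0.16, adjusted p = 0.132), in DESeq2 (0.16), with at least 200 puncta (0.12) and in 2 of 5 leave-one-out fits (range 0.13 to 0.20). The share along Y passed with no replicate block (0.28), in DESeq2 (0.28), with the section as block (0.31) and in 2 of 5 leave-one-out fits (range 0.23 to 0.33). The radial count of 16 genes became 37 adjusted over the genes of 08_Novel only, 7 in DESeq2, 0 with no replicate block, 27 with the section as block, 29 with the radius split at the median and 6 to 32 in leave-one-out fits. The radial interaction count was 0 to 3 in leave-one-out fits. Along Y, 14 genes passed with the section as block and 0 to 2 in leave-one-out fits. Fits with the section as block take cuts of the same retinas as units, so their calls overstate the evidence. Beside Eomes-high types, 2 genes passed with no replicate block and 4 to 14 in leave-one-out fits. No fitted value changed sign; the cause of these shifts was not tested. Retinas 3 and 5, with 500 and 541 cells, limit the depth of every comparison over retinas.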
